A study of Mus musculus with 8 samples.

Results

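The 10 genes described here belong to the ETS family of transcription factors and were taken by symbol from the 49315 genes counted in brain ECs: *Etv1*, *Etv4*, *Etv5*, *Etv6*, *Ets1*, *Ets2*, *Erg*, *Fli1*, *Elk3* and *Elf1*. All 10 passed the filter on low counts, as did 16887 of all genes. The remaining 16 genes of the mouse ETS family, of which 11 passed, served as the comparison. ECs were captured from whole brains with CD31-coated beads at postnatal day 9 (P9), and each of 4 mutant and 4 wild-type pups gave 1 RNA-seq library. Mutant pups, labelled Map2k1 K57N, carried the R26 GT-Map2k1-GFP/+ allele and the Tg-Cdh5CreER+/- transgene, in which the endothelial *Cdh5* promoter drives a tamoxifen-dependent Cre recombinase. Litters of both genotypes received tamoxifen at postnatal day 1. Recombination then places a cDNA of constitutively active MAP2K1, the kinase that activates ERK, under the strong CAG promoter at the *Rosa* locus. Controls were labelled wild type, so no group expressed normal MAP2K1 from the same locus. According to the study, recombined cells were a minority of the ECs, and every value is an average over recombined and other cells. In such bulk libraries, fewer cells of a type and less RNA per cell cannot be told apart.

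ETS factors bind DNA through a conserved winged helix, the ETS domain, which recognises a GGAA core. Many of them are end points of the RAS and ERK pathway: ERK phosphorylates ETS1, ETS2, the PEA3 group (ETV1, ETV4 and ETV5) and the ternary complex factors, to which ELK3 belongs. ERG and FLI1, in turn, are known for keeping endothelial genes active, and ETV6 is mainly a repressor.

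The libraries held between 24833373 and 34196955 counts on genes, so counting error was small for most ETS genes. *Map2k1* itself, whose counts include the transgene, lay between 12692 and 18734 normalized counts in mutant and between 1506 and 1762 in wild-type libraries. Normalized counts are counts scaled by edgeR's TMM method to the mean library size, and CPM are counts scaled to a common library total. All 10 endothelial markers checked were detected, with 3 called higher and 3 lower in mutant ECs (60% called against 44.4% of all genes). They summed to 12310 to 14940 CPM in mutant and 11590 to 14040 in wild-type libraries. Microglia and macrophage markers summed to 131 to 518 and 130.5 to 549.9, oligodendrocyte lineage markers to 72.7 to 121 and 133.5 to 336, markers of granule and immature neurons to 76.5 to 119 and 193 to 272, and red blood cell markers to 87.0 to 285.5 and 531 to 922 (10, 9, 10 and 6 markers, none at 0 in all libraries). The last 3 sums were lower in every mutant library than in any wild-type library (exact two-sided permutation test, adjusted p = 0.0714 over 10 lists for each, with an unadjusted p of 0.0286, the smallest that 4 against 4 allow). Most of the neuron sum was *Zic2*, at 1456 to 2022 normalized counts in mutant and 3751 to 4641 in wild-type libraries. The ranges of the genotypes were separate for 4 of the 9 neuron markers tested, and overlapped for *Neurod1* and *Barhl1*. The sum of 8 astrocyte markers was higher in every mutant library (625.5 to 749.7 against 373 to 443.5, with the same p and adjusted p in the exact permutation test), but *Gja1*, also found outside astrocytes, made up most of it. The median log2 fold change of the 8 was -0.59, and of the others *Aldh1l1* and *S100b* were called lower and none higher.

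Of the 10 ETS genes, 6 were higher and 2 lower in mutant ECs at a threshold of 0.05 on the adjusted p (quasi-likelihood F test of edgeR, Benjamini-Hochberg over all genes tested). Of all genes tested, 44.4% were called by this rule, 21.5% as higher and 22.9% as lower. A single member, *Etv4*, also passed the study's second limit, an absolute log2 fold change above 1, which 14.0% of all genes passed. For 6 of the 10 the ranges of the 2 genotypes were separate, against 42.5% of all genes. The median absolute log2 fold change was 0.34 over the 10 members and 0.37 over all genes. A larger absolute log2 fold change than that of *Etv4* was found in 0.349% of all genes, than those of *Etv1* and *Etv5* in 19.1% and 20.9%, and than those of the other 7 members in 49.9% to 83.2%. The part that the shifts in marker sums had in these values was not tested.

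**Figure D1:**
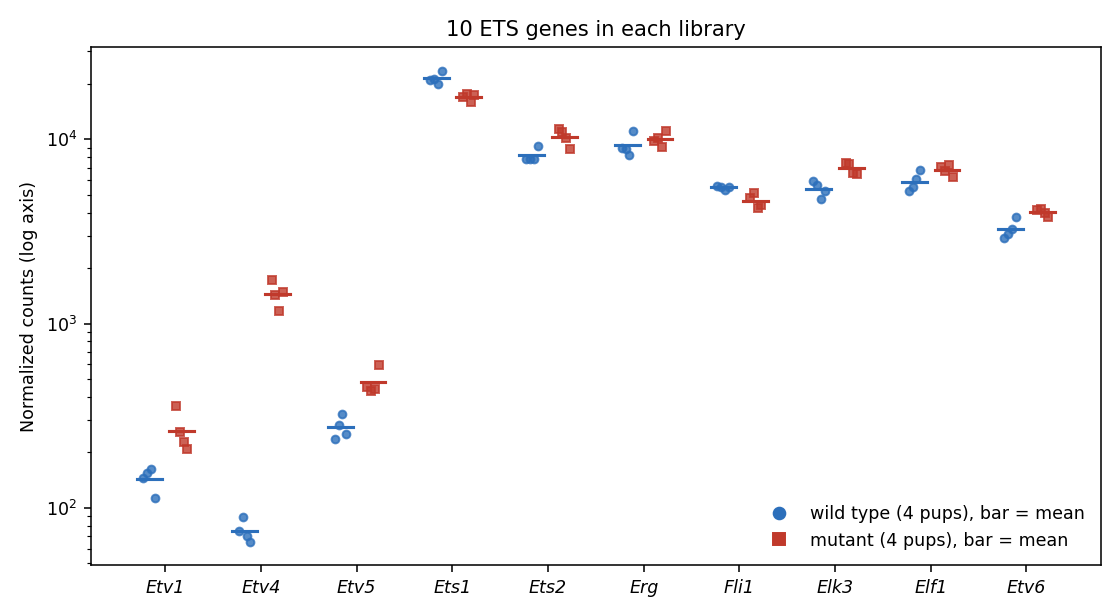
Normalized counts (log axis) of the 10 ETS genes in each of the 4 wild-type (blue circles) and 4 mutant (red squares) libraries, with bars at the group means. *Etv4* rises from 65.4 to 89.3 in wild type to 1172 to 1731 in mutant libraries, while the other members shift by less than 2-fold.

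*Etv4* (ENSMUSG00000017724, chromosome 11, 101769742 to 101785371 in GRCm38, minus strand) encodes the PEA3 factor after which its subgroup is named. In wild-type replicates 1 to 4 it had 74.6, 89.3, 70 and 65.4 normalized counts. In mutant replicates 1 to 4 it had 1731, 1433, 1172 and 1481. The lowest mutant library thus lay more than 10-fold above the highest wild-type library. *Etv4* rose 19.4-fold, from 74.8 ± 10.3 to 1454 ± 229 (SD, n = 4 each) (log2 fold change 4.28, standard error 0.15, 95% interval 3.95 to 4.61, adjusted p = 1.27e-07). Among the 16887 genes tested its log2 fold change was number 58 from the top and its p the second smallest.

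The sample labels carry 3 prefixes whose meaning the labels do not give, and each prefix holds both genotypes in equal number. The methods state that control pups were matched to mutants by litter, but no label ties a prefix to a litter. Within them the log2 difference of *Etv4* was 4.27 (replicates 1 and 2), 4.07 (replicate 3) and 4.50 (replicate 4). Leaving out any library kept the log2 fold change between 4.21 and 4.37. The wild-type level rests on 62 to 95 counts per library, where counting error alone gives a coefficient of variation of 11.2%, close to the 13.8% observed. Mutant libraries, with 1058 to 1701 counts, varied by 15.7% where counting error gives 2.72%. Mutant 1 had the highest level of both *Etv4* and *Map2k1*, and mutant 4 the next highest of both.

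*Etv5* (ENSMUSG00000013089, minus strand of chromosome 16 from 22381309 to 22439719) and *Etv1* (ENSMUSG00000004151, plus strand of chromosome 12 from 38779380 to 38868215) are the other members of the PEA3 group. *Etv5* had 238, 281, 322 and 252 normalized counts in wild-type replicates 1 to 4 and 452, 428, 439.9 and 598 in mutant replicates 1 to 4. *Etv1* had 146, 154, 162 and 113 in wild type and 356, 259, 227 and 208 in mutant ECs. For both genes the lowest mutant value exceeded the highest wild-type value, although the steps were far smaller than that of *Etv4*. *Etv5* rose 1.76-fold (log2 fold change 0.81, standard error 0.14, adjusted p = 0.00112) and *Etv1* 1.82-fold (0.87, standard error 0.19, adjusted p = 0.00416). Within the label prefixes the log2 differences were 0.77, 0.45 and 1.25 for *Etv5* and 1.02, 0.49 and 0.88 for *Etv1*, in the order used above. Neurons of the cerebellum and oligodendrocyte precursors are known to express *Etv1*. Of their markers, 8 of 9 for the oligodendrocyte lineage and 6 of 9 tested for neurons were called, all as lower in mutant ECs. Of all genes tested, 22.9% were called lower. The part of such cells in the *Etv1* values was not tested.

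The genes of the PEA3 group are known targets of the repressor Capicua, which ERK signalling inactivates. RefSeq promoter windows (GRCm38.p6, 250 bases before to 50 after a start) were held for 7 of the 10 members, in 12 windows, and were searched on both strands for the ETS core CCGGAA, the Capicua core TGAATG and the AP-1 site TGANTCA. No window was held for *Etv4*, *Ets1* and *Fli1*, so their promoters were not searched. Both windows of *Etv5* are printed because this gene rose together with *Etv4* and 1 of its windows held matches. Capitals mark the matches. The windows, on the minus strand, are chr16:22439521-22439820 and chr16:22438319-22438618, both written 5′ to 3′ in the direction of the gene.
Etv5 window 1: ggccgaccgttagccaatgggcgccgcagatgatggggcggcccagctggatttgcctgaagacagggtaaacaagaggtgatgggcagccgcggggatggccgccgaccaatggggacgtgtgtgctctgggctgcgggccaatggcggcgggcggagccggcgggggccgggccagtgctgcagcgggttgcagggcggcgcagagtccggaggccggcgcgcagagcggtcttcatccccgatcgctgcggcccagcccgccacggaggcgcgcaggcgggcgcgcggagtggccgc
Etv5 window 2: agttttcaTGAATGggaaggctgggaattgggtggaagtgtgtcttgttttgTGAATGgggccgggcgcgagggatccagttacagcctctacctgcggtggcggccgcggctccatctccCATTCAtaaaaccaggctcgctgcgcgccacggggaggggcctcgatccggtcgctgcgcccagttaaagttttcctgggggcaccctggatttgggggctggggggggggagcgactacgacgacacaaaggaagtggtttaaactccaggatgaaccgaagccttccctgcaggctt

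The second *Etv5* window held the Capicua core 3 times, with first bases at -242, -198 and -129 from the start, the last on the opposite strand. At least 1 match was found in 12.7% of all 32851 windows in the table and at least 3 in 0.170%. The limit of 3 is the number found in this window, 1 of 12 searched for 3 motifs. The 0.170% is therefore not the chance of such a find. No other window of a member held the Capicua core, and 1 of the 2 *Elf1* windows held the AP-1 site (7.81% of all windows). None of the 12 held CCGGAA, the longer form of the ETS core that was searched (14.9% of all windows). The GGAA core alone was not searched, and it does occur in the second *Etv5* window. These are matches of letters in short windows, and binding was not measured.

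To compare levels between genes, counts were also divided by gene length. On this scale, CPM per kilobase of gene length, the wild-type level of *Etv4* was 0.812 ± 0.112 (SD, n = 4) and that of *Etv1* 0.821 ± 0.123, the lowest of the 10 members, with overlapping ranges. *Etv5* stood at 2.24 ± 0.304. In mutant ECs *Etv4* reached 15.8 ± 2.48, *Etv5* 3.94 ± 0.654 and *Etv1* 1.501 ± 0.376. *Etv4* made up 17.6% to 23.3% of the summed level of the PEA3 group in wild-type libraries and 72.2% to 76.6% in mutant libraries. The ratio of *Etv4* to *Etv5* went from 0.288 to 0.420 in wild type to 3.27 to 5.06 in mutant libraries, with no overlap. The sum of the group was 3.88 ± 0.434 in wild-type and 21.2 ± 2.90 in mutant ECs.

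**Figure D2:**
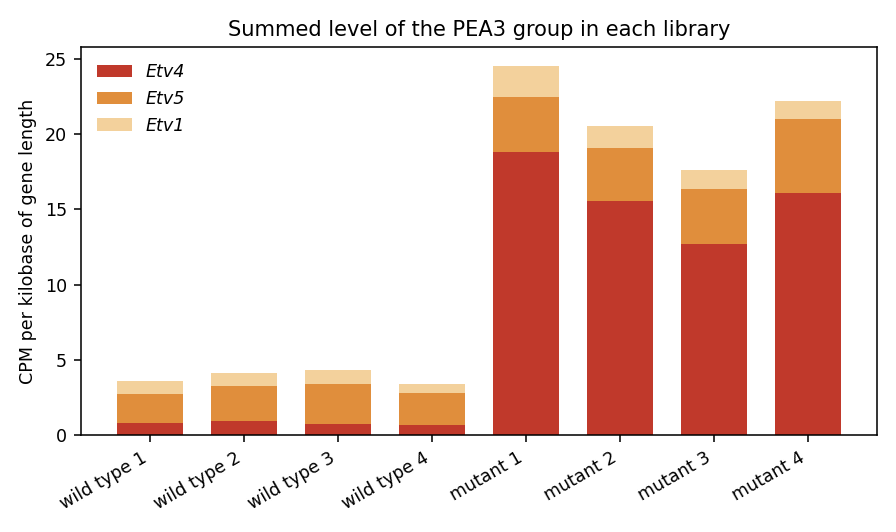
Level per length (CPM per kilobase) of *Etv4*, *Etv5* and *Etv1*, stacked, in each library. *Etv4* is a minor part of the stack in wild-type libraries (17.6% to 23.3%) and most of it in mutant libraries (72.2% to 76.6%).

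*Erg* and *Ets1* were the most abundant of the 10 in wild-type ECs, at 90.1 ± 11.95 and 85.2 ± 5.88 CPM per kilobase (SD, n = 4). Their ranges overlapped, although *Erg* was the higher in each of the 4 libraries. *Ets2* (58.4 ± 5.02), *Fli1* (53.0 ± 1.24), *Elf1* (46.1 ± 5.403) and *Elk3* (39.96 ± 3.91) followed, and of these neighbours *Fli1* overlapped with *Elf1*, and *Elf1* with *Elk3*. *Etv6*, at 18.3 ± 2.16, overlapped with neither of its neighbours. *Erf*, a repressor of the family that is not among the 10, stood at 95.2 ± 4.66, within the range of *Erg*.

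In mutant ECs the order was *Erg* (97.3 ± 8.07), *Ets2* (74.0 ± 8.20), *Ets1* (67.5 ± 3.08), *Elf1* (53.4 ± 3.56), *Elk3* (51.6 ± 3.73), *Fli1* (44.8 ± 3.83), *Etv6* (22.6 ± 0.969) and then *Etv4*. *Ets2* and *Ets1*, *Elf1* and *Elk3*, and *Elk3* and *Fli1* had overlapping ranges. After its rise *Etv4* was the eighth of the 10, still below *Etv6* in all 4 libraries, and *Ets1* remained 3.61 to 4.96 times as abundant as *Etv4*, against 87.1 to 132 times in wild type. In CPM per kilobase, the gain of *Etv4* (15.0) was close to that of *Ets2* (15.5) and to the difference of *Ets1* (-17.8). *Etv4* took 0.142% ± 0.0228 of the summed level of the 26 ETS genes in wild-type and 2.60% ± 0.354 in mutant ECs (SD, n = 4), while the sum itself was 575 ± 25.9 and 607 ± 23.6.

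**Figure D3:**
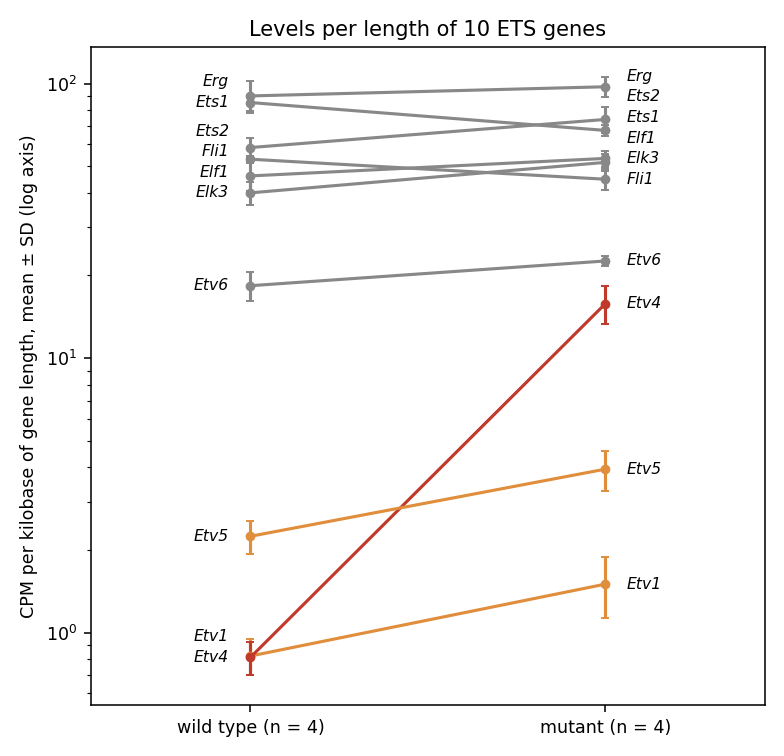
Mean level per length (CPM per kilobase, log axis, bars show SD, n = 4) of the 10 ETS genes in wild-type and mutant ECs. *Etv4* (red) moves from the lowest level, shared with *Etv1*, to just below *Etv6*, and the orange lines mark *Etv1* and *Etv5*.

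*Ets1* (ENSMUSG00000032035, chromosome 9 from 32636221 to 32757820) encodes a factor that ERK activates by phosphorylation and that is abundant in endothelium and lymphocytes. It had 20994, 21246, 20022 and 23516 normalized counts in wild-type replicates 1 to 4 and 17046, 17598, 15865 and 17389.5 in mutant replicates 1 to 4. All mutant libraries lay below all wild-type libraries. *Ets1* fell to 0.792 of the wild-type level (log2 fold change -0.34, standard error 0.08, adjusted p = 0.00457), with -0.29, -0.34 and -0.44 within the label prefixes. *Fli1* (ENSMUSG00000016087), which lies 93359 bases from *Ets1* on chromosome 9 from 32422204 to 32542861 with no tested gene between them, also fell. It had 5608, 5526, 5304 and 5493 in wild type and 4804, 5111, 4246 and 4382 in mutant ECs, again with no overlap (log2 fold change -0.24, standard error 0.07, adjusted p = 0.0211). The call of *Fli1* is close to the threshold. Without mutant replicate 3, mutant replicate 4, wild type replicate 1 or wild type replicate 2 its adjusted p was between 0.0515 and 0.0684, and its log2 fold change stayed between -0.29 and -0.19.

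A second pair of neighbours, *Erg* (ENSMUSG00000040732, from 95359169 to 95586593) and *Ets2* (ENSMUSG00000022895, from 95702075 to 95721051), lies 115481 bases apart on chromosome 16. *Erg*, needed to keep the endothelial programme active, had 8949, 8832, 8240.3 and 11053 normalized counts in wild type and 9734, 10219, 9057 and 11028 in mutant ECs. The groups overlapped and no difference was called (log2 fold change 0.11, 95% interval -0.11 to 0.34, adjusted p = 0.402). *Ets2*, a close relative of *Ets1* and likewise an ERK substrate, had 7829, 7819, 7811 and 9222 in wild type and 11425, 10981, 10144 and 8819 in mutant ECs. It rose 1.27-fold (log2 fold change 0.34, standard error 0.10, adjusted p = 0.0155). Wild type replicate 4 was above mutant replicate 4, with which it shares a label prefix, and the prefix differences were 0.52, 0.38 and -0.06. *Ets1* and *Ets2* therefore moved in opposite directions in this comparison, and the ratio of their levels was not tested.

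*Elk3* (ENSMUSG00000008398, chromosome 10 from 93247414 to 93311135) encodes a partner of serum response factor that represses its targets until ERK phosphorylates it. It had 5952, 5663, 4739.6 and 5232 normalized counts in wild type and 7473, 7330.0, 6582 and 6493 in mutant ECs, with no overlap. *Elk3* rose 1.29-fold (log2 fold change 0.37, standard error 0.09, adjusted p = 0.00629), and within the prefixes by 0.35, 0.47 and 0.31 on the log2 scale. Its exons share 316 bases with *Cdk17* on the opposite strand, and the use of strand in the counting is not given in the sources used here, so a part of its counts is uncertain.

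The repressor gene *Etv6* (ENSMUSG00000030199, chromosome 6 from 134035700 to 134270158) had 2911, 3055, 3274 and 3788 in wild type and 4111, 4171, 3963 and 3786 in mutant ECs. Wild type replicate 4 reached the lowest mutant library, and the other 3 wild-type libraries lay below. *Etv6* rose 1.23-fold (log2 fold change 0.30, standard error 0.09, adjusted p = 0.0167), but the prefix differences were 0.47, 0.28 and -0.001, and without wild type replicate 2 the adjusted p was 0.0564. *Elf1* (ENSMUSG00000036461, chromosome 14 from 79481194 to 79582476), a factor of endothelial and blood cells, had 5234, 5478, 6098 and 6780.5 in wild type and 7118, 6759, 7228 and 6218 in mutant ECs, which overlapped. No difference was called (log2 fold change 0.21, adjusted p = 0.0869). Without wild type replicate 4 it was called, with 0.28 and an adjusted p of 0.0249, and likewise without mutant replicate 4 (0.28, adjusted p = 0.0408). In the prefix of replicate 4, then, *Etv6*, *Ets2*, *Erg* and *Elf1* were no higher in the mutant than in the wild-type library, with differences of -0.001, -0.06, -0.003 and -0.12.

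Of the 16 other ETS genes, 11 were tested and 2 called, 18.2% against 44.4% of all genes, and 4 were called with the label prefix as a block. *Elf4*, a relative of *Elf1*, had 594, 689, 831 and 729 normalized counts in wild type and 1374, 1275, 1479 and 1571 in mutant ECs. It rose 2.01-fold without overlap (log2 fold change 1.00, standard error 0.11, adjusted p = 6.99e-05). Besides *Etv4*, *Elf4* was the only gene of the family that rose by a log2 fold change above 1, and it lay at that limit. Its value was 0.94 with upper quartile scaling and 0.945 to 1.09 with single libraries left out. Of the other ETS genes, 2 passed the absolute limit of 1, *Elf4* as higher and *Spib* as lower. *Spib*, a factor of B lymphocytes and plasmacytoid dendritic cells, was lower at 25.7 ± 15.3 against 58.4 ± 15.4 normalized counts (SD, n = 4; log2 fold change -1.18, standard error 0.37, adjusted p = 0.0261). It rests on 12 to 89 counts per library, and leaving out any of 5 single libraries brought its adjusted p to between 0.0544 and 0.0723. The 6 lymphocyte markers summed to 4.44 to 15.1 CPM in mutant and 9.68 to 19.1 in wild-type libraries. Their part in the *Spib* result was not tested. *Etv2*, *Fev*, *Elf5*, *Ehf* and *Spic* did not pass the filter on low counts. *Etv3*, *Erf*, *Gabpa*, *Elf2*, *Elk1* and *Elk4* had log2 fold changes between -0.19 and 0.12, *Elf3* and *Spdef*, both under 50 normalized counts, -0.82 and 0.54, and none was called.

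*Spi1*, the myeloid factor PU.1, was highest in the same 3 libraries as the microglia markers. It had 172, 257, 747 and 221 normalized counts in wild type and 111, 120.5, 542 and 463 in mutant ECs. The 3 libraries above 400, wild type 3, mutant 3 and mutant 4, were also the 3 with the highest sums of microglia markers (550, 518 and 417 CPM, against 130.5 to 203.5 in the other 5). No difference between the groups was called for *Spi1* (log2 fold change -0.17, 95% interval -1.47 to 1.13, adjusted p = 0.832). Without these 3 libraries, a choice made after seeing the data, *Spi1* was called lower, with a log2 fold change of -0.88 (adjusted p = 0.0112, edgeR). They are also the 3 highest libraries of *Spi1*. Leaving them out kept mutant 1 and 2 (111 and 120.5 normalized counts) and wild type 1, 2 and 4 (172, 257 and 221). The choice thus acted on the *Spi1* values themselves, and the call is not a separate result. In the same fit *Etv4* kept a log2 fold change of 4.39, 7 members were called, all of them also called with all libraries, and *Fli1* was not (-0.14, adjusted p = 0.220).

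**Figure D4:**
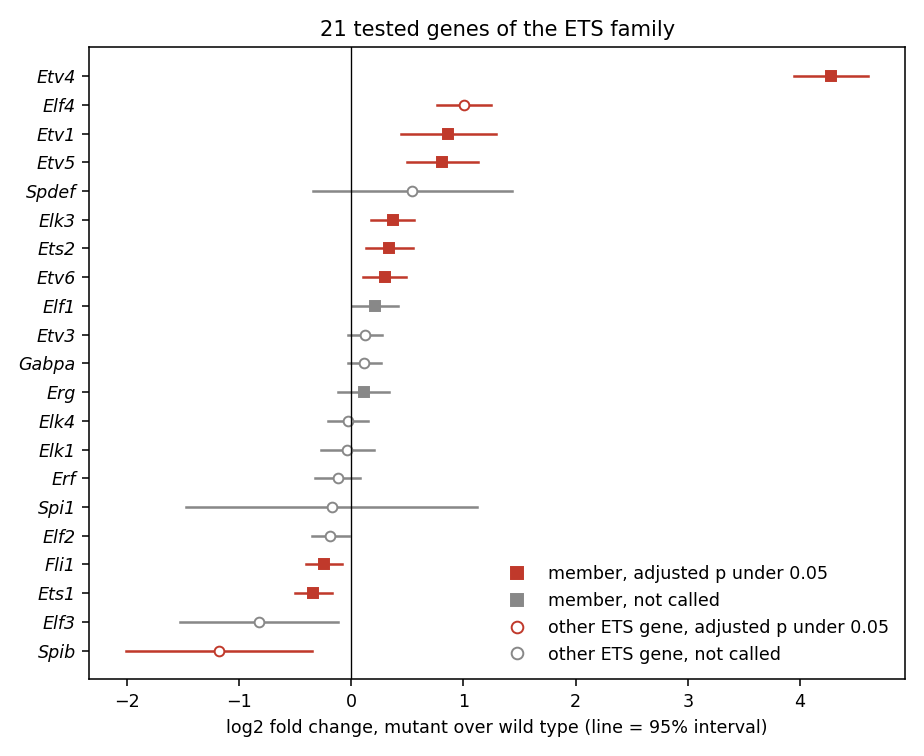
Log2 fold change of mutant over wild type with its 95% interval for the 21 tested ETS genes, sorted (filled squares, the 10 members, open circles, the other 11, red, adjusted p under 0.05). *Etv4* at 4.28 stands apart from *Elf4* at 1.00, *Etv1* at 0.87 and *Etv5* at 0.81, and the remaining members lie between -0.34 and 0.37.

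The other genes of the pathway were taken from 4 lists. ERK output genes, a list of feedback inhibitors and early targets without the members, did not move as a block. Of 18 tested, 8 were higher and 6 lower, 77.8% called against 44.4% of all genes, with a median log2 fold change of -0.04 against -0.03 over all genes. *Spred3*, an inhibitor of RAS signalling, rose 3.07-fold from 517 ± 40.5 to 1587 ± 268 normalized counts (SD, n = 4; adjusted p = 8.19e-06). *Myc*, which drives growth, rose 2.30-fold (adjusted p = 5.71e-05), and *Dusp4*, a nuclear phosphatase of ERK, 2.14-fold (adjusted p = 2.13e-04). *Etv4* thus rose by more than any gene of this list.

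Genes of proteolysis and invasion that PEA3 and ETS factors are known to regulate mostly rose. Of 17 tested, 14 were higher and 1 lower, 88.2% called against 44.4% of all genes, and the median log2 fold change was 1.11. The list was drawn up with results of these data known and holds *Itgb3*, which the study names, so the count is not independent evidence of a direction. *Itgb3*, an integrin of angiogenic vessels, had 252 to 331 normalized counts in wild type and 5181 to 11010.1 in mutant ECs (log2 fold change 4.63, standard error 0.24, adjusted p = 7.27e-07). *Plau*, the urokinase protease, rose 5.47-fold from 1395 ± 810.4 to 7638 ± 2067 (SD, n = 4, adjusted p = 3.34e-04), and the wild-type spread came from replicate 3 at 2592 against 799 to 1102 in the others. The matrix protease gene *Mmp3* had 0 to 5 counts in wild-type and 26 to 72 in mutant libraries (adjusted p = 3.28e-04). *Ret*, a receptor kinase singled out after its values were seen, was the gene that fell, to 0.447 of its wild-type level (adjusted p = 5.28e-04).

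Endothelial genes known as targets of ERG or FLI1 moved in both directions. Of 22 tested, 6 were higher and 9 lower, 68.2% called against 44.4% of all genes, with a median log2 fold change of -0.07. *Vwf*, the clotting factor stored in ECs, rose 2.22-fold (log2 fold change 1.15, standard error 0.13, adjusted p = 7.42e-05), and *Clec14a*, an endothelial surface protein, 2.25-fold (1.17, standard error 0.15, adjusted p = 1.94e-04). *Sox17*, an arterial transcription factor, fell from 9032 ± 1101 to 3941 ± 701 normalized counts (SD, n = 4; log2 fold change -1.20, standard error 0.14, adjusted p = 8.82e-05). *Erg* was not called and *Fli1* fell by 0.24 on the log2 scale in the same libraries, and a link to these targets was not tested.

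Regulators and partners of ETS factors gave 4 higher and 6 lower of 22 tested, 45.5% called against 44.4% of all genes, with a median log2 fold change of -0.14. *Lmo2*, an adaptor in endothelial and blood transcription complexes, had 9345 to 11528 normalized counts in wild type and 2458 to 3471 in mutant ECs, a fall to 0.294 of the wild-type level (log2 fold change -1.76, standard error 0.12, adjusted p = 4.17e-06). *Sox17*, described above, was on this list too. *Foxc1*, a forkhead factor that acts with ETS factors on vascular enhancers, fell to 0.419 (-1.25, standard error 0.13, adjusted p = 6.15e-05). The 4 higher genes were *Dda1* (log2 fold change 0.55), a component of ubiquitin ligases, *Foxo1* (0.48), *Trib1* (0.48), an adaptor of the COP1 ligase that degrades PEA3 proteins, and *Atxn1l* (0.24), a Capicua partner. *Cic*, which encodes Capicua and was looked up after its values were seen, had 5915 to 7470.1 normalized counts in wild type and 5272 to 6761 in mutant ECs, and was not called (log2 fold change -0.18, 95% interval -0.40 to 0.04, adjusted p = 0.165).

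**Figure D5:**
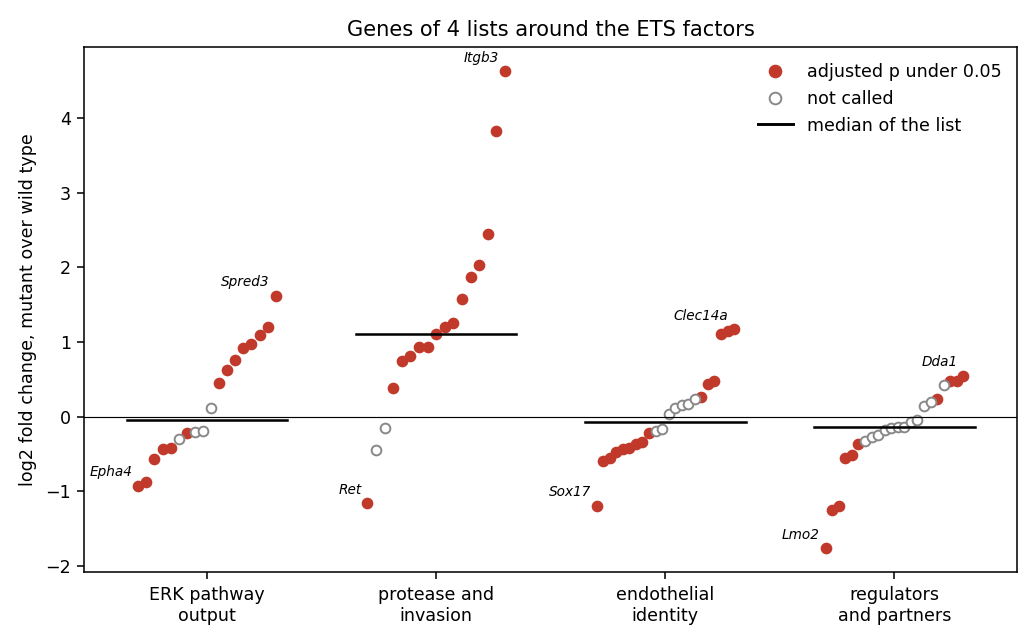
Log2 fold change of mutant over wild type for each tested gene of the 4 lists (18, 17, 22 and 22 genes), red where the adjusted p is under 0.05 and open where it is not, with a line at each list's median. The protease and invasion list has a median of 1.11, and the other 3 medians lie between -0.14 and -0.04.

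The genes whose profile over the 8 libraries was most like that of *Etv4* were *Piezo2*, *Mest*, *Cd276*, *Sorcs2* and *9130008F23Rik*. Likeness was the mean absolute difference of log2 CPM after each gene was centred on its wild-type mean, among genes averaging 100 or more normalized counts, and it was 0.144, 0.179, 0.182, 0.228 and 0.229. *Mest*, an imprinted gene, rose from 956 ± 76.0 to 22154 ± 4715 normalized counts and *Cd276*, a surface protein, from 240.4 ± 42.2 to 5052 ± 1472 (SD, n = 4). In *Piezo2*, *Mest*, *Cd276* and *Sorcs2*, mutant 1 was the highest and mutant 3 the lowest mutant library, as in *Etv4*. In *9130008F23Rik*, mutant 4 was the highest (330.8) and mutant 2 the lowest (178). Since the genes were picked for likeness to *Etv4* in these libraries, a shared order is not a separate result.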

How the data were processed

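RNA was measured in brain ECs of 4 mutant and 4 wild-type pups, grouped by sample title. The authors used Trimmomatic for trimming and STAR for mapping to GRCm38, and deposited whole-number counts per gene for each library. The counting program, annotation release and strand setting are not given in the sources used here. A table of normalized values was also deposited and was not used. Symbols were matched for 48970 of 49315 gene IDs. In R 4.3.3, counts were filtered with filterByExpr of edgeR 4.0.16 (minimum count 10), scaled by TMM and tested with glmQLFit and glmQLFTest without covariates, since the methods name DESeq2 and no covariate, although controls were matched to mutants by litter. P-values were adjusted over all genes tested, and intervals of 95% are not adjusted. Levels per length used the gene lengths of the count files. Simulated data with known changes were used to test the fit. Libraries of the same genotype differed by more than sampling noise (chi-square per degree of freedom between 7.41 and 42.8 over pairs), so each counted as 1 replicate. P-values set the difference between genotypes against the spread between pups of a genotype, which includes any difference between litters. All 10 members were named. Of the other ETS genes, the called ones and *Spi1* were named, of each list the 3 called genes of largest absolute log2 fold change, and the 5 genes most like *Etv4*. Members and lists were chosen with earlier results of these data known, and intervals cover the spread between libraries only. Alternatives were DESeq2 1.42.0, other scalings and filters, other thresholds, blocks and left-out libraries.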

Additional observations from a re-analysis of the deposited data

Results flagged for a closer look

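Over the 25 genes named and both genotypes, 50 groups of 4 libraries were examined for a library far from the other 3, and 3 were found, where chance gives about 1 in 20. *Etv5* had 598.0 normalized counts in mutant replicate 4, against 427.9, 439.9 and 452.0 in the other mutant libraries. *Ets2* had 9221.7 in wild type replicate 4, against 7810.6, 7818.8 and 7829.2 in the other wild-type libraries. *Foxc1* had 2009.8 in mutant replicate 4, against 3046.3, 3047.7 and 3263.0 in the other mutant libraries.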

How the results depend on the processing

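The same 8 members were called with DESeq2, with 3 other scalings, with a mean of at least 100 counts as the filter, and with either block. The label prefix as a block gave 14 regulators and 17 ERK output genes called, against 10 and 14 as reported. The median log2 fold change of all genes moved from -0.025 to at most -0.087 (upper quartile), where 40.7% of calls were higher, against 48.4% as reported. With a replicate block, 6 members were higher and 2 lower, and 3973 and 4189 genes were called. Same-numbered libraries had correlations of deviations of 0.232, 0.147, 0.008 and 0.034, and not every library correlated best with its own number, so the numbers were not taken as pairs. With a fold limit of 1 on the log2 scale added, 996 genes were higher and 1360 lower, with 1 member higher and 0 lower. At an adjusted p under 0.01, 2440 genes and 1 member were lower. Lower members numbered 1 without the filter and 1 without the 3 libraries of highest microglial markers (a choice made after seeing the data), and 1 to 2 when single libraries were left out. Other ETS genes called were 4 with upper quartile scaling, 4 with the label prefix as a block, 4 without those 3 libraries, 1 at an adjusted p under 0.01, and 1 to 3 with single libraries left out. With that limit, 3 regulators, 4 endothelial targets and 3 ERK output genes were called, and 9 endothelial targets at an adjusted p under 0.01. *Spi1* turned from -0.17 to 0.12, 0.10 and 0.52 without mutant replicate 1, mutant replicate 2 and wild type replicate 3. With single libraries left out it ranged from -0.58 to 0.52. It was -0.88 and called (adjusted p = 0.0112, edgeR) without the 3 libraries named above, which are also its 3 highest. Differences in marker sums (mutant minus wild type, CPM) turned to -340.4 for endothelial markers with library totals, and to -340.6, -48.57 and -391.4 without mutant replicate 1, mutant replicate 2 and wild type replicate 3 (range -391.4 to 535.6). They turned to -20.18 for microglia without mutant replicate 3 (range -20.18 to 147.8) and to -0.193 for platelets without mutant replicate 4 (range -0.193 to 2.11). The cause of these changes was not tested.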
